A study of Rattus norvegicus with 21 samples.

Results

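Cadherins and the genes that mark or drive the epithelial-mesenchymal transition were followed across tumour, metastasis and liver in a rat model of cholangiocarcinoma, the cancer of bile duct epithelium. The set held 8 genes chosen by name. They were the cadherins Cdh1, Cdh2 and Cdh11, the mesenchymal products Vim and Fn1, and the transcription factors Snai2, Twist1 and Zeb1. A probe set annotated to a single symbol was found for 7 of the 8 genes, among 14217 genes measured. No such probe set was listed for Snai2, which was not analysed here. Where a gene had several probe sets, the one with the highest mean over the 21 arrays was used and the others served as a check.

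Affymetrix rat arrays were hybridised with RNA of 21 tissue pieces from 9 young adult male Fischer 344 rats, all of them carrying BDEneu tumours. BDEneu is a single line of rat bile duct epithelial cells transformed with an activated neu oncogene. Tumours from the liver (3 rats each at days 10, 15 and 25 after inoculation), peritoneal metastases (the 3 rats of day 25) and the right liver lobe labelled as normal (all 9 rats, 3 a day) gave 7 groups of 3 arrays. Each tissue of a rat was measured once, and every replicate within a group is another rat. Rats 1 to 3 belong to day 10, rats 4 to 6 to day 15 and rats 7 to 9 to day 25. No rat without a tumour was analysed here, so the liver lobe is liver of tumour-bearing animals. The day 25 livers are given as day 55 in 1 label field and as day 25 in the title and source name, and day 25 was used.

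In an epithelium, E-cadherin (Cdh1) joins neighbouring cells at adherens junctions, where its tail binds the catenins. During an epithelial-mesenchymal transition the zinc finger factors Snai2 and Zeb1 and the basic helix-loop-helix factor Twist1 lower Cdh1, while N-cadherin (Cdh2), vimentin (Vim) and fibronectin (Fn1) go up. In the liver these genes also mark cell types: hepatocytes make E-cadherin, N-cadherin and plasma fibronectin, whereas vimentin is a filament of stellate cells, fibroblasts, endothelium and leukocytes.

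Levels are log2 values after RMA, a method that aligns the distributions of all arrays and summarises the probes of each probe set, and a difference of 1 is a doubling. The array medians lay between 5.98 and 6.06. Differences were tested with limma over all 14217 genes with Benjamini-Hochberg adjustment, and the adjusted p had to be under 0.05 for a call. The bile duct origin in the labels was checked on markers. Of 8 measured bile duct markers 7 were called higher in tumour than in liver, against 36.8% of all genes. The other, Cftr, lay under the lowest array median on average in every group. The mean over 16 measured hepatocyte markers ran from 7.65 to 11.49 in tumours, from 5.52 to 6.53 in metastases and from 12.25 to 12.89 in livers. The tumour and the metastasis of rat 7 had an r of 0.993 over all probe sets. That tumour had a mean r of 0.959 with the other day 25 tumours, and that metastasis 0.967 with the other metastases. The tumour of rat 7 had the lowest hepatocyte mean of the 9. Pancreatic acinar transcripts were high in 4 arrays, namely the tumours of rats 2, 5 and 9 and the metastasis of rat 8. In bulk tissue, fewer cells of a type and less RNA per cell cannot be told apart.

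Tumours had more E-cadherin than liver, less N-cadherin, and far more Cdh11 and vimentin. Over the 3 days together, 4 of the 7 genes were called higher in tumour than in liver (Cdh1, Cdh11, Vim, Twist1), 2 were called lower (Cdh2, Fn1) and Zeb1 was not called. Across all genes 74.6% were called in this comparison, 36.8% higher and 37.8% lower, so the number of calls does not set these genes apart. What differs among them is the size, which ran from -2.04 for Cdh2 to 4.28 for Cdh11 on the log2 scale. The all-day difference is the mean of the 3 tumour groups minus the mean of the 3 liver groups. At day 10, 4 genes were called higher and 1 lower, against 30.4% and 28.1% of all genes (58.4% in either direction). At day 15 it was again 4 higher and 1 lower, against 28.2% and 23.6% of all genes (51.8%). At day 25, 3 were called higher and 2 lower, against 27.7% and 22.4% of all genes (50.1%).

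**Figure D1:**
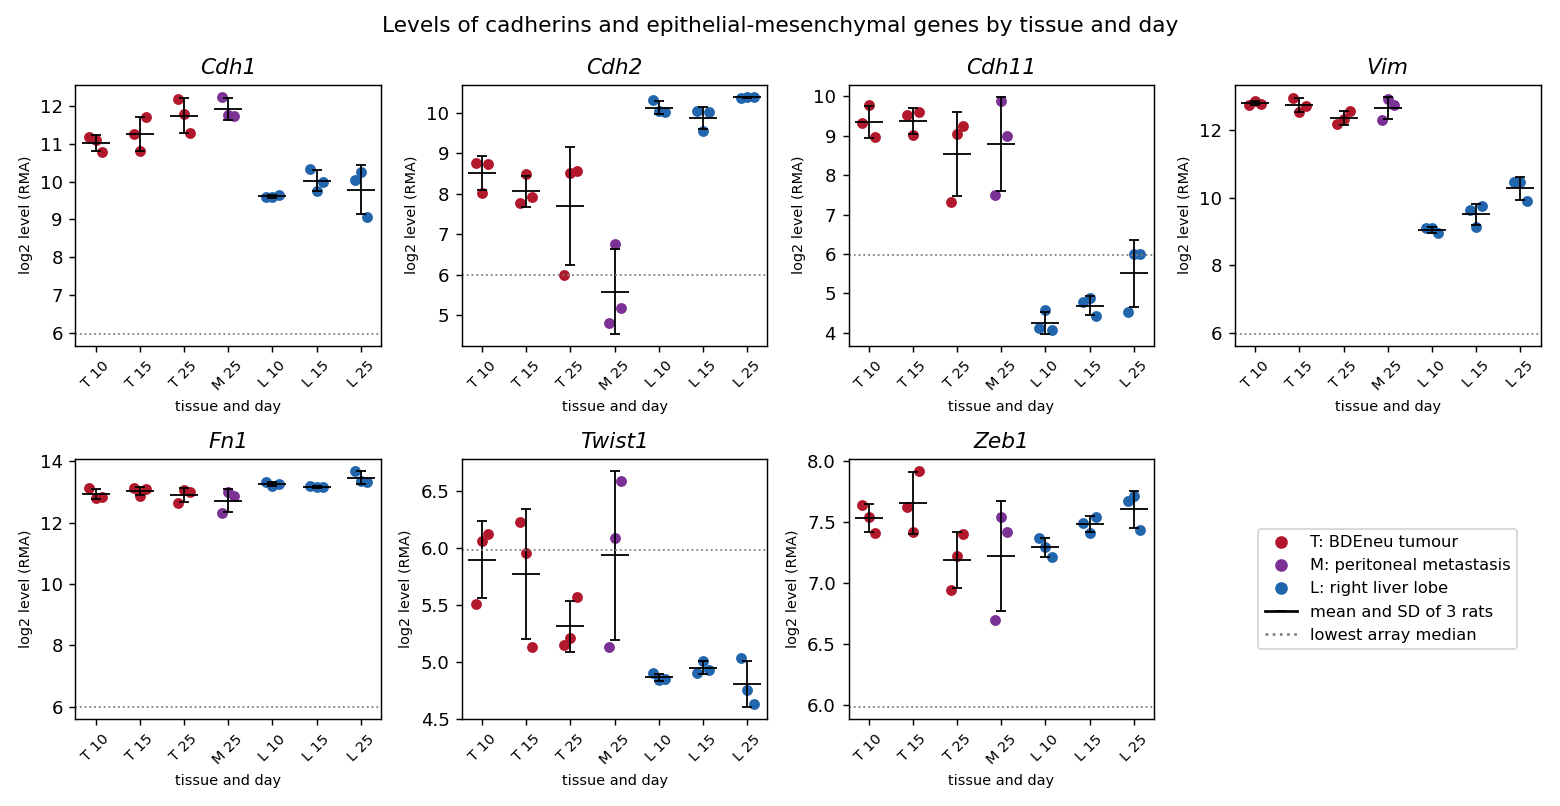
Log2 level of each measured gene (vertical axis, a scale of its own for each gene) in tumour (T), metastasis (M) and liver (L) at days 10, 15 and 25. Points are single rats, bars the mean and SD of 3 rats, and the dotted line the lowest array median, 5.98. Cdh1, Cdh11 and Vim in tumours and metastases lie above all livers, and Cdh2 lies below them.

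E-cadherin was higher in tumour and metastasis than in liver. Cdh1 (probe set 1386947_at) had levels of 11.19, 11.10 and 10.77 in day 10 tumours, 11.25, 10.82 and 11.71 in day 15 tumours, and 12.18, 11.78 and 11.27 in day 25 tumours. The metastases had 12.24, 11.77 and 11.74. The livers had 9.59, 9.59 and 9.65 at day 10, 10.32, 9.75 and 10.00 at day 15, and 10.04, 10.26 and 9.06 at day 25. No tumour or metastasis overlapped with any liver, and tumour exceeded liver in 9 of 9 rats. The difference between tumour and liver was 1.54 ± 0.17 (SE; 2.90-fold; limma adjusted p = 4.6e-07), and by day it was 1.41 at day 10, 1.23 at day 15 and 1.96 at day 25, each called. In the order of group means the metastases stood first at 11.92, followed by day 25, day 15 and day 10 tumours at 11.75, 11.26 and 11.02, and each neighbouring pair overlapped in its single rats.

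N-cadherin went the other way. Cdh2 (1368642_at) had levels of 8.76, 8.01 and 8.74 in day 10 tumours, 7.77, 8.49 and 7.91 in day 15 tumours, and 6.00, 8.50 and 8.56 in day 25 tumours. In the metastases it had 4.80, 6.76 and 5.18. The livers had 10.31, 10.05 and 10.01 at day 10, 10.04, 9.54 and 10.01 at day 15, and 10.37, 10.38 and 10.39 at day 25. Every liver was above every tumour, the metastases of rats 7 and 9 were under the lowest array median, and the tumour of rat 7 stood far below every other tumour. In the order of group means the livers of days 25, 10 and 15 came first at 10.38, 10.12 and 9.86. The tumours of days 10, 15 and 25 followed at 8.50, 8.05 and 7.69, each overlapping with the next, and the metastases came last at 5.58.

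Over all days Cdh2 was lower in tumour than in liver by a log2 difference of -2.04 ± 0.32 (SE; limma adjusted p = 2.1e-05), and it was lower in 9 of 9 rats. The difference was -1.62 at day 10 (adjusted p = 0.018), -1.81 at day 15 (0.011) and -2.69 at day 25 (6.6e-04). The day 10 call was lost without the tumour of rat 2 (-1.37, adjusted p = 0.077) and without the liver of rat 1 (-1.52, adjusted p = 0.053). Without the tumour of rat 7 the day 25 difference was -1.85 and still called.

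The Cdh2 level moved with hepatocyte transcripts. Across the 9 tumours Cdh2 and the mean of the hepatocyte markers had a Pearson's r of 0.95 (two-sided exact permutation p = 7.7e-04; 0.0072 after Benjamini-Hochberg adjustment over 28 relations of the 7 genes with 4 marker lists) and a Spearman's rho of 0.80 (exact permutation p = 0.014, adjusted 0.077). Without the tumours of rats 5 and 7, which lie farthest from the median of the marker mean, r was 0.90. The permutations ran across the 3 days, so in all 28 relations a shared change with day was not separated. A day holds 3 tumours, too few for a value within a day. In the metastases, where Cdh2 was lowest, 9 of the 16 hepatocyte markers lay under the lowest array median on average. It was 0 in each liver group, and 0, 0 and 1 in the tumours of days 10, 15 and 25. The part of hepatocyte RNA in the tumours' Cdh2 level was not tested. Cdh1 ran against the same markers, with r = -0.86 (exact permutation p = 0.0023, adjusted 0.013) and a rho of -0.75 (p = 0.025, adjusted 0.1). Without the tumours of rats 5 and 7 its r was -0.63. Cdh1 also moved with the bile duct markers (r = 0.83, exact permutation adjusted p = 0.021) and against the leukocyte markers (r = -0.81, 0.026). Cdh2 moved against the bile duct markers (r = -0.80, 0.023). By rho the adjusted p of these relations was 0.27, 0.08 and 0.24 in turn. Without the 2 tumours farthest from the marker median, r was 0.55, -0.49 and -0.48.

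**Figure D2:**
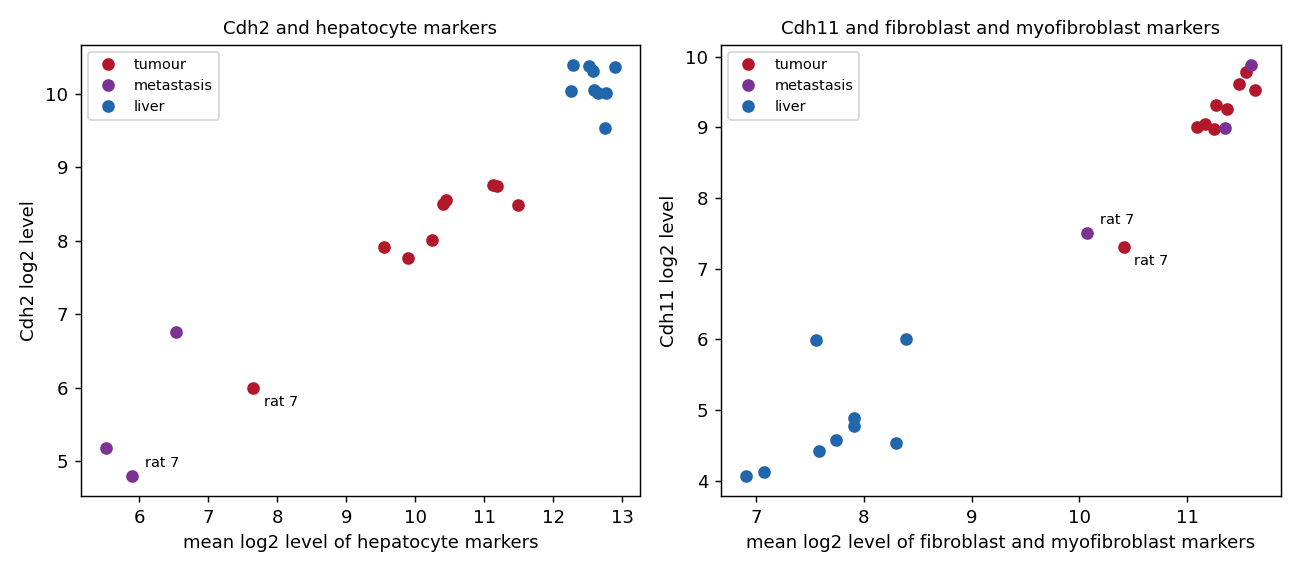
Left, Cdh2 log2 level against the mean log2 level of 16 hepatocyte markers; right, Cdh11 against the mean of 12 fibroblast and myofibroblast markers. Each point is 1 of 21 arrays, coloured by tissue, with the tumour and the metastasis of rat 7 labelled. Livers, tumours and metastases stand apart in hepatocyte markers, and for Cdh11 the rat 7 pieces lie below the other tumours and metastases at 7.31 and 7.51.

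Cdh11, the cadherin of mesenchymal cells such as osteoblasts and activated fibroblasts, showed the largest difference from liver among the 7 genes. Cdh11 (1388936_at) had levels of 9.32, 9.78 and 8.97 in day 10 tumours, 9.53, 9.01 and 9.61 in day 15 tumours, and 7.31, 9.05 and 9.26 in day 25 tumours. In the metastases it had 7.51, 9.88 and 8.99. In liver it had 4.12, 4.57 and 4.07 at day 10, 4.77, 4.88 and 4.42 at day 15, and 4.53, 6.01 and 5.99 at day 25. The lowest tumour, of rat 7, was still above the highest liver, and 7 of 9 livers were under the lowest array median. The 4 group means of tumours and metastases lay between 8.54 and 9.38 and overlapped in their single rats, and those of the livers lay between 4.25 and 5.51.

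The tumour minus liver difference of Cdh11 was 4.28 ± 0.32 (SE; limma adjusted p = 4.2e-09), positive in 9 of 9 rats. It was 5.11 at day 10, 4.69 at day 15 and 3.03 at day 25 (SE 0.55 each), all called. Since most livers were near the bottom of the scale, the exact size of these differences is not to be relied on. Across the 9 tumours Cdh11 moved with the fibroblast and myofibroblast markers (Pearson's r = 0.97, exact permutation p = 4.0e-04, adjusted 0.0056; Spearman's rho = 0.88, p = 0.0031, adjusted 0.029), and r was 0.92 without the tumours of rats 4 and 7. All 12 of those markers were measured and called higher in tumour, against 36.8% of all genes. Their mean ran from 10.41 to 11.63 in tumours, from 10.07 to 11.59 in metastases and from 6.91 to 8.39 in livers. Their part in the Cdh11 difference was not tested.

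Probe sets of a gene did not all show these differences, which were tested here with adjustment over all probe sets. The other Cdh11 probe sets had tumour minus liver differences of -0.18 (1391088_at, adjusted p = 0.029) and 0.21 (1391146_at, adjusted p = 0.025) over all days, against 4.28 for the one used. The first of them spanned 6.50 to 7.37 over the 21 arrays. The second spanned 3.82 to 4.68 and was under the lowest array median in all 21. One Cdh2 probe set (1387259_at) followed the one used, with a difference of -2.16, whereas another (1378271_at) spanned 5.86 to 6.38 with a difference of -0.12 (adjusted p = 0.055). The remaining Cdh1 probe set (1386446_at) spanned 3.63 to 3.94 with a difference of 0.07 (adjusted p = 0.19). The Twist1 probe set 1387750_at spanned 4.46 to 5.06 with a difference of 0.13 (adjusted p = 0.1). Vim, Fn1 and Zeb1 have a single probe set each.

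**Figure D3:**
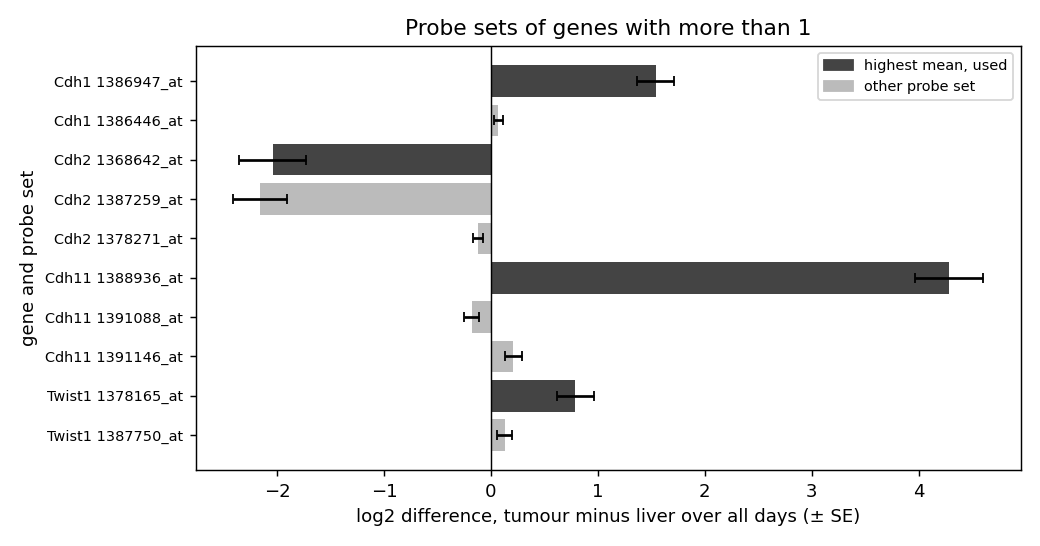
Tumour minus liver over all days (log2 difference, bars with SE) for each probe set of the 4 genes with more than 1. Dark bars are the probe sets used and pale bars the others. The pale bars lie near 0, except for Cdh2 1387259_at at -2.16.

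Vimentin had the smallest adjusted p of the 7 genes between tumour and liver. Vim (1367574_at) had levels of 12.74, 12.85 and 12.76 in day 10 tumours, 12.95, 12.53 and 12.72 in day 15 tumours, and 12.17, 12.32 and 12.57 in day 25 tumours. The metastases had 12.29, 12.92 and 12.75. The livers had 9.09, 9.09 and 8.95 at day 10, 9.62, 9.14 and 9.75 at day 15, and 10.47, 10.47 and 9.89 at day 25. Tumours were all high and close together, while the livers of the 3 days did not overlap and stood in the order of the days.

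The difference of Vim between tumour and liver was 3.02 ± 0.11 (SE; 8.1-fold; limma adjusted p = 9.1e-13), positive in 9 of 9 rats. It was 3.74 at day 10, 3.23 at day 15 and 2.08 at day 25 (SE 0.19 each), all called. Across the tumours Vim moved with the fibroblast markers (r = 0.86, exact permutation p = 0.0013, adjusted 0.0093; rho = 0.83, p = 0.0083, adjusted 0.058) and with the leukocyte markers (r = 0.86, p = 0.0031, adjusted 0.015; rho = 0.88, p = 0.0031, adjusted 0.029). Without the 2 tumours farthest from the median, r was 0.65 for the fibroblast markers and 0.58 for the leukocyte markers.

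Fibronectin was high in every piece and slightly lower in tumour than in liver. Fn1 (1370234_at), the matrix protein that hepatocytes also secrete into plasma, had levels of 12.63 to 13.12 in the 9 tumours with a median of 13.00. In metastases it had 12.31, 12.99 and 12.87, and in livers 13.15 to 13.70 with a median of 13.25. Tumours and livers did not overlap, although the lowest liver lay close to the highest tumour. The tumour minus liver difference was -0.34 ± 0.09 (SE; limma adjusted p = 0.0031), negative in 9 of 9 rats. By day it was -0.33 at day 10 (adjusted p = 0.084), -0.14 at day 15 (0.47) and -0.56 at day 25 (0.0082). The day 10 difference was called in a fit of only the groups compared (adjusted p = 0.024) and without both rat 7 tumour pieces (0.017). The day 25 call was lost without the tumour of rat 7 (-0.42, adjusted p = 0.052). These levels lie near the top of the scale, which reached 14.62, where differences can be compressed, which was not tested.

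Of the transcription factors, Twist1 was higher in tumour at low levels and Zeb1 was not called. Twist1 (1378165_at) had 5.51, 6.06 and 6.12 in day 10 tumours, 6.23, 5.95 and 5.13 in day 15 tumours, and 5.15, 5.21 and 5.57 in day 25 tumours. The metastases had 5.13, 6.09 and 6.59, and the 9 livers had 4.63 to 5.03 with a median of 4.90. All tumours were above all livers, but 16 of the 21 arrays were under the lowest array median, all 9 livers among them. The exact size of the Twist1 differences is thus not to be relied on. The difference was 0.79 ± 0.17 over all days (SE; limma adjusted p = 6.7e-04), 1.04 at day 10 (0.0079), 0.82 at day 15 (0.032) and 0.51 at day 25 (0.17). The day 15 call was lost in 5 of the 6 fits that left out an array of that day, with values from 0.59 to 1.14 over the 6; only without the tumour of rat 6 was it kept. It was also lost without the 4 arrays high in acinar transcripts (0.73, adjusted p = 0.12). Across the 9 tumours Twist1 moved with the leukocyte markers (r = 0.91, exact permutation p = 2.3e-04, adjusted 0.0056; rho = 0.92, p = 0.0013, adjusted 0.029; r = 0.89 without the tumours of rats 7 and 8). Over days 10, 15 and 25 the Twist1 group means in tumours were 5.90, 5.77 and 5.31. The median leukocyte marker means were 9.64, 9.61 and 9.26. Permutations ran across the days, so a shared change with day was not separated. Of 11 measured leukocyte markers 9 were called higher in tumour than in liver, against 36.8% of all genes. The part of these markers in the Twist1 level was not tested.

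Zeb1 (1370965_at) had levels of 7.64, 7.54 and 7.41 in day 10 tumours, 7.62, 7.42 and 7.92 in day 15 tumours, and 6.94, 7.22 and 7.40 in day 25 tumours. The metastases had 6.70, 7.54 and 7.42. The livers had 7.37, 7.29 and 7.21 at day 10, 7.49, 7.41 and 7.54 at day 15, and 7.67, 7.71 and 7.43 at day 25. Tumour was above liver at day 10, the groups overlapped at day 15, and tumour was below liver at day 25. The differences were 0.24 (limma adjusted p = 0.26), 0.17 (0.44) and -0.41 (0.066), and the mean over days was 0.00 ± 0.10 (SE; adjusted p = 0.996). With the rat as a block the day 25 difference of -0.41 had an adjusted p of 0.044. It was also called after quantile normalization (-0.53, adjusted p = 0.011), after median centring (-0.45, 0.036), without the tumour of rat 9 (-0.52, 0.041) and without the 4 arrays high in acinar transcripts (-0.52, 0.032). Within rats, tumour minus liver was 0.27, 0.25 and 0.20 at day 10, 0.13, 0.01 and 0.38 at day 15, and -0.72, -0.49 and -0.03 at day 25. Across the 9 tumours Zeb1 moved with the fibroblast and myofibroblast markers (r = 0.81, exact permutation p = 0.011, adjusted 0.029). Its rho was 0.67 (adjusted 0.21), and r was 0.59 without the tumours of rats 4 and 7. The part of these markers in the Zeb1 level was not tested.

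Snai2, Twist1 and Zeb1 bind E-boxes in DNA, with the letters CANNTG and often CAGGTG. Promoters of 3 of the 8 genes are given in the RefSeq promoter table used here (Vim, Twist1 and Zeb1, build GRCr8), each from 250 bases before to 50 after the gene start. Vim lies at chr17:81577011-81577310 on the plus strand, Twist1 at chr6:56402059-56402358 on the plus strand and Zeb1 at chr17:56810604-56810903 on the minus strand. They are shown because Vim differed clearly between tumour and liver, Twist1 at low levels, and Zeb1 not over all days, and because the factors' own promoters can be read for the letters that such factors bind. Capitals mark every match to CANNTG, which includes CAGGTG, on either strand.
Vim promoter: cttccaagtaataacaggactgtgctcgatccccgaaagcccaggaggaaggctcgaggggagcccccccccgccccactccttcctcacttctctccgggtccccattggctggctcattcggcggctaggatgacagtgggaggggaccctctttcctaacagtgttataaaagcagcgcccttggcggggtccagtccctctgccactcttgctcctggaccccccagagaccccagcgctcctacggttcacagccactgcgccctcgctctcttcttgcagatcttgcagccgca
Twist1 promoter: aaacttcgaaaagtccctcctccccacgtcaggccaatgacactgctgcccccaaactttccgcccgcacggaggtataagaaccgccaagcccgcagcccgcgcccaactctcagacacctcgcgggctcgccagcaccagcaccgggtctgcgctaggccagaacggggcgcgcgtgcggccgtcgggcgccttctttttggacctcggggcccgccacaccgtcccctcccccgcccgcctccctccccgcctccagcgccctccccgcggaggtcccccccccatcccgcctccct
Zeb1 promoter: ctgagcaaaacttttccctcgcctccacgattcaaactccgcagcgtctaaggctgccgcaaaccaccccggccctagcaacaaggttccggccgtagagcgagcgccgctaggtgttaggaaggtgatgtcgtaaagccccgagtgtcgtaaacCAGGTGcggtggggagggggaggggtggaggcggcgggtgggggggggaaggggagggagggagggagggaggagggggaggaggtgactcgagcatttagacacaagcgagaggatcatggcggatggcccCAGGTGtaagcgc
The Zeb1 window held 2 matches, both CAGGTG, at -95 and 38 relative to the gene start, and the Vim and Twist1 windows held 0. Among 33469 promoters of the same length, 72.1% held at least 1 CANNTG, 18.8% at least 1 CAGGTG on either strand and 2.5% at least 2 CAGGTG. A match describes the letters alone.

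In the metastases, none of the 7 genes was called against the day 25 tumours of the same rats, in a comparison where 0.338% of all genes were called. N-cadherin had the largest difference. Within rats the metastasis was lower in Cdh2 than the tumour in 3 of 3, by log2 differences from -1.20 to -3.38. The group difference was -2.11 ± 0.55 (SE; limma adjusted p = 0.21). The groups overlapped through the metastasis of rat 8, at 6.76, and the tumour of rat 7, at 6.00. Cdh2 was called without the tumour of rat 7 (-2.95, adjusted p = 3.7e-04), without the metastasis of rat 8 (-2.70, 0.046) and without both pieces of rat 7 (-2.56, 0.0014). The probe set 1387259_at of Cdh2 had a difference of -1.77 (adjusted p = 0.23). Hepatocyte markers were lower in the same comparison, 6 of 16 being called lower and 0 higher with a median difference of -3.81, against 0.06 over all genes. Their part in the Cdh2 difference was not tested.

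The other 6 genes differed by less between metastasis and tumour. The log2 differences were 0.17 for Cdh1, 0.25 for Cdh11, 0.30 for Vim, -0.18 for Fn1, 0.62 for Twist1 and 0.03 for Zeb1, and in each of them the single rats of the groups overlapped. Metastases were also set against the livers of the same rats. With 57% of all genes called (33.3% higher and 23.6% lower), 4 of the 7 genes were higher in metastasis, by 2.13 for Cdh1, 3.29 for Cdh11, 2.38 for Vim and 1.13 for Twist1, and 2 were lower, by -4.80 for Cdh2 and -0.74 for Fn1. With the metastases of rats 7 and 9 under the lowest array median, the exact size for Cdh2 is not to be relied on. The same holds for Cdh11 and Twist1, and for Cdh2 between metastasis and tumour. Zeb1 had a difference of -0.38 (limma adjusted p = 0.08), which was called without the metastasis of rat 8 (-0.54, adjusted p = 0.022), without the 4 arrays high in acinar transcripts (-0.54, 0.024) and after quantile normalization (-0.54, 0.0087). The Twist1 call was lost in a fit of only the groups compared (adjusted p = 0.051). Metastasis and tumour are set against the same 3 livers here, so the 2 sets of differences are not independent.

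**Figure D4:**
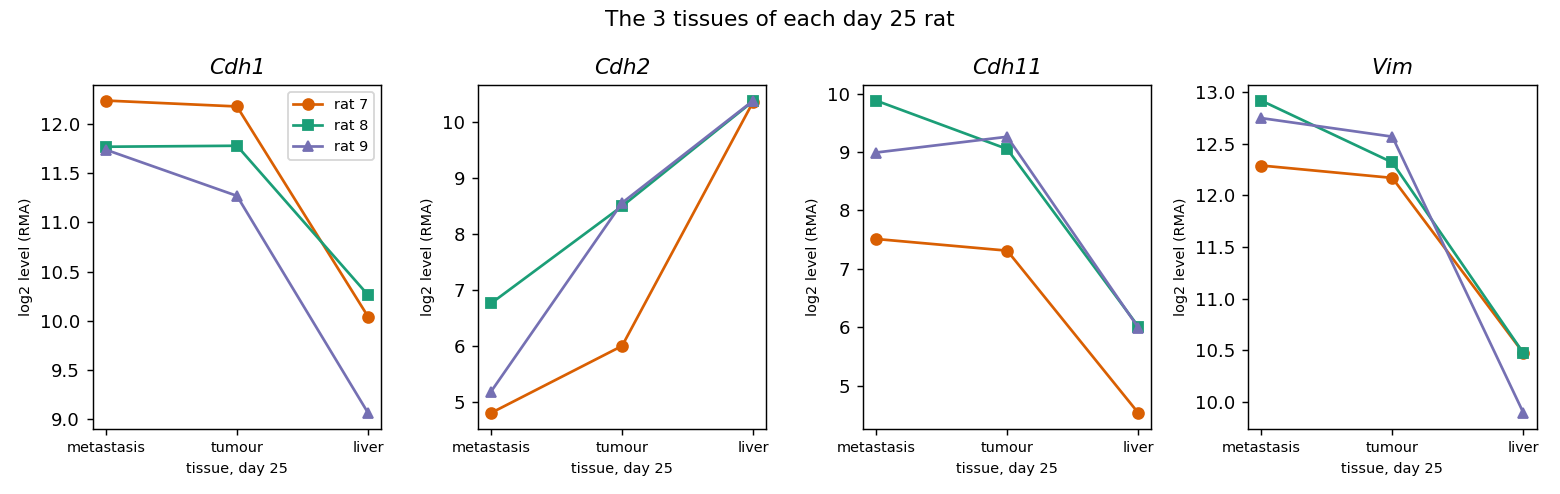
Log2 levels of Cdh1, Cdh2, Cdh11 and Vim in the metastasis, tumour and liver of each day 25 rat, joined by rat. Cdh2 is lower in metastasis than in tumour in all 3 rats, and rat 7 has the lowest Cdh11 in each tissue.

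**Figure D5:**
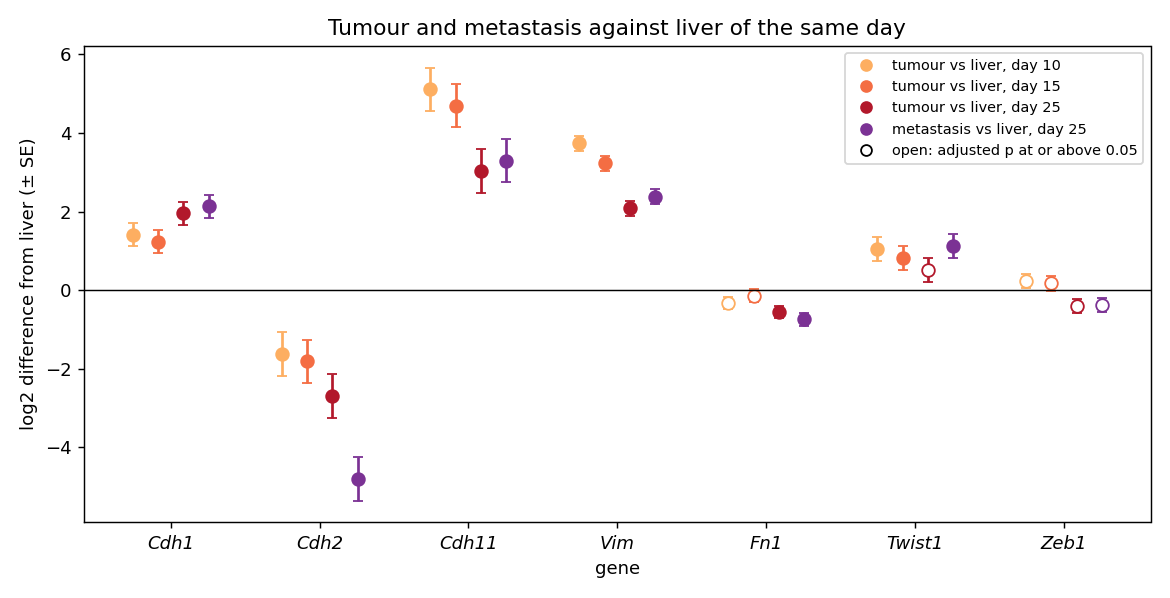
Log2 difference from liver of the same day (± SE) in tumour at days 10, 15 and 25 and in metastasis at day 25, by gene. Filled points were called at an adjusted p under 0.05 and open points were not. Vim runs 3.74, 3.23 and 2.08 over the 3 days, and Cdh2 reaches -4.80 in metastasis.

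As tumours grew, none of the 7 genes was called between days 25 and 10, where 0.0563% of all genes were called. Nor was any called between days 15 and 10 or between days 25 and 15, where limma called 0 genes; at an unadjusted p under 0.05 there were 350 and 1202 genes, with 0 and 1 of the 7 among them. At day 25 over day 10 the log2 differences in tumour were 0.72 for Cdh1 (SE 0.29, unadjusted p = 0.025, adjusted p = 0.23) and -0.43 for Vim (SE 0.19, unadjusted p = 0.037, adjusted p = 0.26). In this comparison 2443 of 14217 genes had an unadjusted p under 0.05, with 2 of the 7 among them. The tumours of these days did not overlap in Cdh1, in Vim or in Zeb1, whose difference was -0.34 (limma adjusted p = 0.33). The share of all genes without overlap was not counted. Cdh2 and Cdh11 each had -0.82 (SE 0.55). Both depended on the tumour of rat 7, without which the difference was 0.02 for Cdh2 and -0.20 for Cdh11.

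Vimentin rose in liver over time. Between days 25 and 10 the liver level of Vim rose by 1.23 ± 0.19 (SE; limma adjusted p = 0.0015), while 9.1% of all genes were called, 5.33% as higher, and the other 6 genes were not. Cdh11 had a difference of 1.26 ± 0.55 (adjusted p = 0.17), and the livers of rats 8 and 9 were high while that of rat 7 lay within the range of day 15. It was called when both rat 7 tumour pieces were left out of the shared estimate of the spread (adjusted p = 0.032). The leukocyte markers also went up in liver, 5 of 11 being called higher, with a mean per liver of 8.34 to 8.67 at day 25 and 7.47 to 7.72 at day 10. The fibroblast markers had 2 of 12 called higher, with means of 7.56 to 8.39 at day 25 and 6.91 to 7.74 at day 10. Their part in the Vim rise was not tested.

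The change of the tumour minus liver difference with time was called for Vim and for none of the other 6 genes. Vim within rats differed by 3.66, 3.76 and 3.81 at day 10, by 3.33, 3.39 and 2.96 at day 15, and by 1.70, 1.85 and 2.68 at day 25. No 2 of the days overlapped. The change at day 25 over day 10 was -1.66 ± 0.27 (SE; limma adjusted p = 0.012), in a comparison that called 1.46% of all genes, 1.09% as lower. It was called in all 12 fits that left out an array, with adjusted p between 0.0039 and 0.043. The change was -2.07 ± 0.78 for Cdh11 (adjusted p = 0.18) and -0.65 ± 0.25 for Zeb1 (adjusted p = 0.2). With the rat as a block this comparison called 402 genes against 208.

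Genes that work with these 7 were followed in 6 lists, described by counts beside the median difference over all genes, -0.03, and beside the 74.6% of all genes called in this comparison (36.8% higher and 37.8% lower). No list was tested against the other genes. Of 17 catenins and adherens junction partners 9 were called higher and 6 lower in tumour than in liver over all days, against 36.8% and 37.8% of all genes, with a median of 0.39. Pkp1, a desmosomal plakophilin, had a difference of 3.87, the actin regulator Cttn 1.45, Pkp3 1.27 and the adhesion receptor Nectin1 -1.23. Afdn, which links nectins to actin, had 0.25 and was not called, but it was without the liver of rat 7 (0.33, adjusted p = 0.014) and without the 4 arrays high in acinar transcripts (0.34, 0.04). Its other probe sets gave -0.16 and -0.22.

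Of 11 other cadherins measured out of 15, 3 were called higher and 4 lower (2 lower after a filter on dim genes), near the 36.8% and 37.8% of all genes, with a median of -0.10. The truncated, lipid-anchored Cdh13 had a difference of 2.01, P-cadherin (Cdh3) 1.28, Cdh6 1.26 and liver-intestine cadherin (Cdh17) -1.89. Every liver was under the lowest array median in Cdh3 and Cdh6, and in Cdh6 every tumour too, so the size of these differences is not to be relied on. Cdh22 had -0.10 by the probe set used and was not called, while its other probe set had 0.71.

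Among 14 measured of 20 further transcription factors of the transition, 9 were called higher and 1 lower (2 lower with the rat as a block, after median centring, with the mean of a gene's probe sets, and without the liver of rat 2 or of rat 9), against 36.8% and 37.8% of all genes, with a median of 0.65. Sox4 had a difference of 4.07, Id1, an inhibitor of basic helix-loop-helix factors, 2.26, Zeb2 1.68 and Tcf4 1.62, while Id2 had -0.09 and was not called. Other probe sets of these genes gave smaller differences, of -0.01 to 2.90 over 6 for Sox4, 0.62 to 0.99 over 4 for Zeb2 and 0.56 for Tcf4. The other Id2 probe set gave 0.13. Zeb2, the relative of Zeb1, had levels of 8.58 to 9.81 in tumours with a median of 9.67, and of 7.27 to 8.37 in livers with a median of 7.78. Tumours and livers did not overlap in Zeb2.

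Of 12 measured of 16 regulators and markers of the epithelial state, 6 were called higher and 3 lower, against 36.8% and 37.8% of all genes, with a median of 0.54. Taken in either direction, that is about the 74.6% of all genes. The factor Klf5 had a difference of 5.21, the surface protein Epcam 4.44, which is also among the bile duct markers, and the epithelial factor Elf3 2.42. The other Klf5 probe sets gave 3.96, 1.46 and 0.12, and every liver was under the lowest array median in the one used, so the size for Klf5 is not to be relied on. The hepatocyte factor Foxa2 had -2.30 and the splicing regulator Rbm47 -0.17, which was not called but was after quantile normalization (-0.26, adjusted p = 0.038), without the tumour of rat 7 (-0.23, 0.045) and without both rat 7 tumour pieces (-0.23, 0.02).

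Of 11 measured of 13 receptors and assembly genes, 7 were called higher and 3 lower, against 36.8% and 37.8% of all genes, with a median of 0.48. The matrix protein Tnc had a difference of 6.52, and the integrin chains Itgb1, Itgav and Itga8 had 1.29, 0.99 and 0.81. In Tnc and Itga8 every liver was under the lowest array median, so their sizes are not to be relied on. Other probe sets gave 1.46 for Itgb1, 1.70 and 1.51 for Itgav and 0.35 for Itga8. Itga5, whose product pairs with that of Itgb1 as the main fibronectin receptor, had -0.04 and was not called. Of 12 intermediate filament genes and vimentin partners, 7 were called higher and 4 lower (1 lower after the filter on dim genes), against 36.8% and 37.8% of all genes, with a median of 0.97. The filament gene Nes, which copolymerizes with vimentin, had 2.14, and the lamins Lmna, Lmnb1 and Lmnb2 had 1.98, 1.96 and 1.71, whereas keratin Krt18 had -0.10 and was not called. Other probe sets gave 1.23 for Lmna and 1.52 and 0.26 for Lmnb1, and every liver was under the lowest array median in Lmnb2.

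No member of the 6 lists was called between metastasis and tumour, between tumour days 25 and 10, or in the change of the tumour minus liver difference. Of all genes 0.338%, 0.0563% and 1.46% were called there in turn, so the absence of calls does not set the lists apart. In liver, 9 of 77 (11.7%) were called between days 25 and 10, against 9.1% of all genes, so the count does not set the lists apart. Klf4 (1.31), Krt18 (1.44) and Id1 (0.79) rose and kept their calls without any single liver of these days. The other 6 calls were each lost without at least 1 of those livers.

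The genes most like each member over the 7 group means were found by the root mean square difference after each gene was centred on its own mean. Those nearest to Cdh1 were Eif4e3 and Gpatch11 (0.08 each) and Llgl1 (0.10). Nearest to Cdh2 were Hnf4a (0.26), which encodes a hepatocyte transcription factor, Amacr (0.30) and Gpr182 (0.31). Cdh11 was followed most closely by Clec7a (0.20), a receptor of myeloid cells, the collagen gene Col1a2 (0.23) and the collagen cross-linking enzyme Lox (0.26). For Vim they were Fhl2 (0.13), Col5a2 (0.14) and Hopx (0.15), and for Twist1 Ccdc90b (0.06), H2ax (0.09) and Dach1 (0.10). Fn1 and Zeb1 ranged over less than 1 log2 unit between groups, by 0.74 and 0.47, and none was sought for them.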

How the data were processed

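The deposited table gives log2 levels of probe sets, which the authors computed with RMA (submitters' processing notes), without a stated version. It has 31099 probe sets (57 controls) on 21 arrays. A single symbol was given for 20826 probe sets, several for 436 (not used), and 9780 had none. The gene identifier served to bring symbols up to date from a RefSeq table of assembly GRCr8. Each gene was represented by its probe set of highest mean, giving 14217 genes, of which 4525 had more than 1.

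The limma package (version 3.58.1, R 4.3.3) fitted 7 group means to the 21 arrays without a block (lmFit, then eBayes), with Benjamini-Hochberg adjustment over all genes and calls at 0.05. The fit was tested on simulated data with independent noise on each array, so that test does not bear on tissues sharing a rat. Per the labels, tissues of a rat share an animal, and their deviations from the group means correlated at 0.04 to 0.30 between tumour and liver, at 0.58 (rat 7), 0.11 and 0.04 between metastasis and tumour, and at 0.05 to 0.16 between metastasis and liver, so the rat as a random block (consensus correlation 0.136) was an alternative. Other alternatives were the choice of probe set, quantile normalization, median centring, a filter on dim genes (10739 left), a trended robust prior, fits of only the groups compared, and leaving out each array, the 4 arrays high in acinar transcripts (a marker mean over 1 above the median array) or both rat 7 tumour pieces. Correlations used all 362880 orders of 9 tumours, across the days, so a shared change with day was not separated.

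The members and lists were chosen with earlier results of these data known. Genes named from a list were the 4 called genes of largest change in tumour against liver and the uncalled gene of highest mean; the 3 genes nearest to a member were named where its group means ranged over 1 or more. Arrays carry no read depth, and their number limits the precision.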

Additional observations from a re-analysis of the deposited data

Results flagged for a closer look

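The difference in Vim between tumour and liver was smaller at day 25 than at day 10 by a tested change of -1.66 (limma adjusted p = 0.012). Within rats it was 1.70 to 2.68 at day 25 and 3.66 to 3.81 at day 10. It was called under every alternative and in all 12 fits that left out an array, and with the rat as a block its adjusted p was 0.0045. At day 25 over day 10, Vim was higher by 1.23 in liver (limma adjusted p = 0.0015). In tumour it differed by -0.43 (adjusted p = 0.26).

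In Zeb1, tumour was below liver in 3 of 3 rats at day 25 and above it in 3 of 3 rats at day 15. The differences were -0.72, -0.49 and -0.03 at day 25 and 0.13, 0.01 and 0.38 at day 15. Those of rat 9 (-0.03) and rat 5 (0.01) were very small. The mean difference within rats was lower by -0.59 at day 25 than at day 15. This change between days 25 and 15 was not tested. At day 25 over day 10 the tested change was -0.65 (limma adjusted p = 0.2).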

How the results depend on the processing

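Of 913 values of the 7 genes under alternatives other than leaving out 1 array, 860 kept their direction and their side of the threshold, 25 turned sign, 10 gained a call and 18 lost one. Other probe sets gave most of the turned signs. For Cdh11 1391088_at the differences were -0.18 over all days, -0.30, -0.08 and -0.17 at days 10, 15 and 25, -0.22 and -0.39 for metastasis against tumour and liver, -0.04, 0.11 and 0.06 for tumour days 15 against 10, 25 against 15 and 25 against 10, -0.06 for liver days 25 against 10, and 0.13 for the change with time. Cdh11 1391146_at had 0.03 for tumour days 25 against 10. Cdh1 1386446_at had -0.01 for metastasis against tumour, against liver and for tumour days 25 against 15, and -0.11 for the change with time. Cdh2 1378271_at had 0.05 at day 10. In metastasis against tumour Zeb1 had -0.01 after quantile normalization and -0.02 without the 4 acinar arrays, where Vim had 0.08 for tumour days 15 against 10. Without both rat 7 tumour pieces Zeb1 had 0.04 over all days, Cdh2 0.47 and Fn1 0.01 for tumour days 25 against 15, and Cdh2 0.02 and Fn1 0.12 for days 25 against 10. Then Cdh2 was the 1 gene of the set called in metastasis against tumour, where 166 of 14217 genes were called. In liver days 25 against 10, 2 of the set were called. The main fit called 9.1% of all genes there, and the share without these pieces is not given here. The cause was not tested. Of 428 values of the list genes named, 409 kept direction and side. The following are for tumour against liver. With the probe set of largest SD and the mean of probe sets, Cdh22 had 0.71 and 0.31 and Afdn -0.16 and -0.04. Id2 had 0.02 with that mean. Itga5 had 0.03 without the acinar arrays and 0.02 without both rat 7 tumour pieces.

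The rat as a block changed no other call of the 7 genes than Zeb1 at day 25 (-0.41, adjusted p = 0.044), and called 402 genes for the change with time against 208. Testing all probe sets called 21452 between tumour and liver with the days together, 15938, 13147 and 12348 at days 10, 15 and 25, and 14932 in metastasis against liver, where more features were tested. In tumour days 25 against 15 it called 1 and the probe sets of largest SD called 2, and the cause was not tested. Fits of only the groups compared called 1 gene in metastasis against tumour, 0 in tumour days 25 against 10 and 557 in liver days 25 against 10. Without the acinar arrays these were 12 in metastasis against tumour, 1 in tumour days 15 against 10, 578 in days 25 against 10 and 19 for the change with time. Without both rat 7 tumour pieces, 166 were called in metastasis against tumour.

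Leaving out 1 array at a time gave 30 to 402 genes for the change with time, 21 to 220 in metastasis against tumour, 0 to 159 in tumour days 25 against 10, 0 to 1 and 0 to 7 in the other tumour steps, and 626 to 1651 in liver days 25 against 10. Of the 7 genes, 0 to 1 were then called in metastasis against tumour. Signs turned only in uncalled differences. Over all days Zeb1 ran from -0.04 to 0.04 and Itga5 from -0.11 to 0.02. In metastasis against tumour Cdh1 ran from -0.07 to 0.39, Cdh11 from -0.36 to 0.89, Fn1 from -0.32 to 0.02 and Zeb1 from -0.13 to 0.29. In tumour days 15 against 10 Cdh11 ran from -0.17 to 0.24, Vim from -0.16 to 0.05, Twist1 from -0.36 to 0.19 and Zeb1 from -0.01 to 0.24. In days 25 against 15 Cdh2 ran from -0.81 to 0.47 and Fn1 from -0.21 to 0.01, and in days 25 against 10 Cdh2 from -1.26 to 0.02 and Fn1 from -0.11 to 0.12. In liver days 25 against 10 Cdh1 ran from -0.06 to 0.54 and Twist1 from -0.18 to 0.03.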
